A study of Homo sapiens with 12 samples.

Results

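In K562 cells, 82 annotated genes were higher in every library of a DNMT3A knockdown and of a RUNX1 knockdown than in every library of the empty vector. They are 82 of the 58233 annotated rows, and of the 59317 rows in all, of the deposited expression values. The members were chosen by their lowest knockdown library, which had to hold at least 3 TPM and to stand at least 1.5 times above the highest vector library. TPM is a transcript level per unit of length, relative to all RNA of a library. The 100 rows with the highest mean level were left out. All 9 libraries entered this choice, so the rise over the vector is described here and not tested. The rows carry the prefix of Ensembl gene identifiers, cut to 8 characters, so they are genes rather than transcripts. A gene is given here by its position in the list, because the shortened names do not pair a row with a symbol.

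K562 is an established human chronic myeloid leukemia line. The libraries came from stable pools infected with lentivirus that carried the empty pLKO vector (3 libraries), an shRNA against DNMT3A in pLKO (sh3A, 3 libraries) or an shRNA against RUNX1 in pLKO (shRUNX1, 3 libraries), all selected with hygromycin. The methods call the 3 libraries of a group biological replicates and do not say how the cultures were separated, so the spread between them may be partly technical. Neither the loss of DNMT3A and RUNX1 nor the markers of K562 could be looked up, for want of gene names. TPM keeps no read depth, so the precision that depth gives each value is unknown.

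DNMT3A is a de novo DNA methyltransferase, which places methyl groups on cytosines that carried none, and methylation of a promoter is generally linked to silence of the gene. RUNX1 is a DNA-binding transcription factor of the core-binding factor complex, required for definitive hematopoiesis, and it can activate or repress its targets. Both genes are recurrently mutated in acute myeloid leukemia. Setting the knockdowns side by side shows which genes were higher in both than in the empty vector. Both knockdowns were compared with the same pLKO libraries. No library came from a pool with a hairpin directed at neither gene. Whether a shared rise came from the loss of the proteins, from carrying any hairpin or from the shared controls was therefore not tested.

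The knockdowns rested on the hairpins below, which are shown because the hairpin is what differs by design between the infected pools. The 21 capitals of each line are the target, 5′ to 3′, as the study listed it. Which hairpin of each pair was sequenced is not given in the sources used here.
shDNMT3A#1: CCCAAGGTCAAGGAGATTATT
shDNMT3A#2: CCGGCTCTTCTTTGAGTTCTA
shRUNX1#2: GAACCAGGTTGCAAGATTTAA
shRUNX1#3: CCTCGAAGACATCGGCAGAAA

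On GRCh38, with the transcripts of GENCODE 29, all 4 targets lay in coding exons on the minus strand and matched no other gene exactly. The shDNMT3A#1 target spans chr2:25246176-25246196 and the shDNMT3A#2 target chr2:25240420-25240440. Each of them occurs in 4 of 5 coding transcripts of DNMT3A. The shRUNX1#2 target spans chr21:34880589-34880609 and occurs in 6 of 9 coding transcripts of RUNX1. The shRUNX1#3 target crosses an exon junction, from chr21:34859474-34859480 to chr21:34834588-34834601, and occurs in 5 of these 9.

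pLKO replicate 1 stood apart from the other control libraries. Over the 10442 annotated genes with at least 3 TPM in every knockdown library, outside the 100 highest, its value was at the median 0.609 times the mean of pLKO replicates 2 and 3, and it was the lowest control for 86.7% of them. Its 10 highest rows took 19.0% of all TPM, against 11.1% and 11.3% in the other pLKO libraries and between 11.6% and 17.1% in the knockdowns. For the 82 rising genes its median ratio to the other controls was 0.668. It was the lowest control for 62 of them and the highest for 8. The highest control, which the rule used, was pLKO replicate 2 for 44 genes and pLKO replicate 3 for 30.

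The 82 genes made up 0.785% of the 10442 genes that reached the floor of 3 TPM in all 6 knockdown libraries. Their summed level was 780, 1078 and 1044 TPM in pLKO replicates 1, 2 and 3. It was 2176, 2214 and 2225 TPM in the sh3A libraries and 2172, 2178 and 2119 TPM in the shRUNX1 libraries. The sum was thus higher in both knockdowns, by 2.28-fold and 2.23-fold, and the 6 knockdown libraries lay within a narrow range. A single gene, at position 52058, held between 14.7% and 19.2% of the sum in each library.

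**Figure D1:**
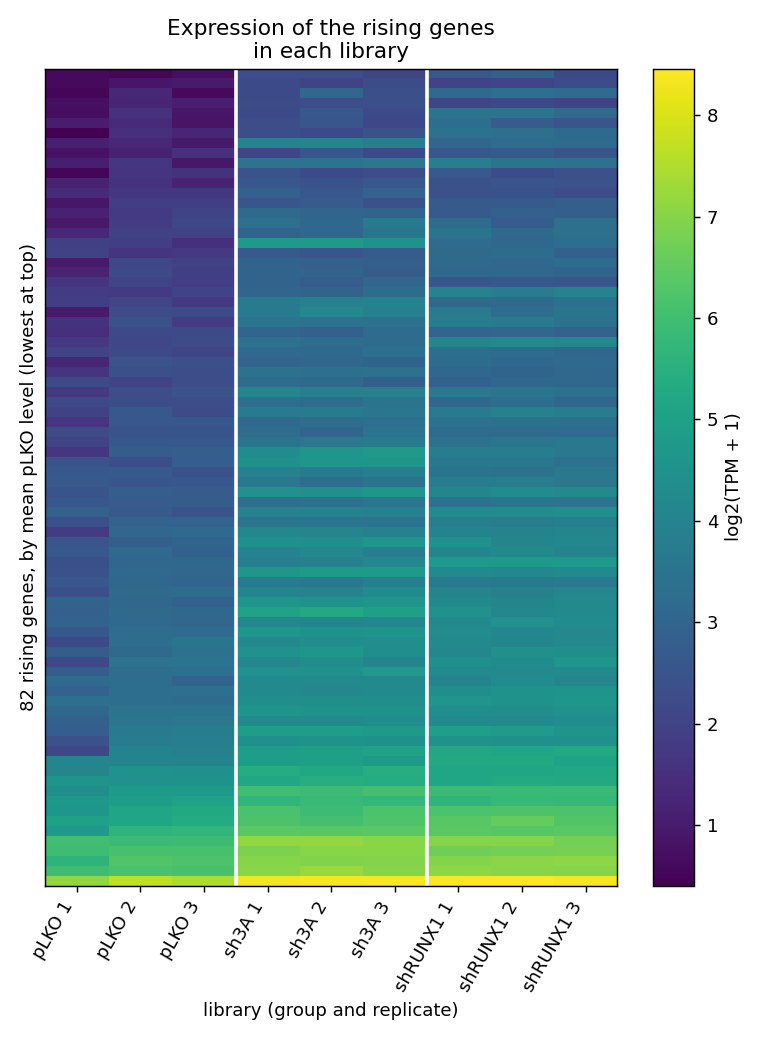
Level of the 82 rising genes in each of the 9 libraries. Each line is a gene, ordered by its mean level in pLKO with the lowest at the top, each column is a library, and the color is log2(TPM + 1). The columns of both knockdowns are brighter than the pLKO columns, and pLKO replicate 1 is the lowest control for 62 of the 82 genes.

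None of the 82 genes was silent in the vector cells. With silent taken as under 0.5 TPM in the highest pLKO library, low as 0.5 to under 5 TPM and well expressed as 5 TPM or more, 35 were low and 47 were well expressed. The lowest of their highest pLKO values was 0.65 TPM. Mean pLKO levels ran from 0.547 to 4.38 TPM for the low genes and from 3.98 to 173 TPM for the well expressed genes, and 16 genes had a mean of 10 TPM or more. Of all 10442 genes at the floor, 361 were low and 10081 well expressed. Members made up 9.70% of the former and 0.466% of the latter. The floor bears on these shares, since a gene under 2 TPM in pLKO that reached it also met the ratio.

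Among all 41299 annotated genes that were silent in pLKO, not 1 reached 3 TPM in all 6 knockdown libraries, whatever its fold. The nearest, at position 45462, lies outside the rule for named genes and was chosen after its values were seen. It was at 0.05, 0.33 and 0.17 TPM in pLKO, 2.67, 1.96 and 2.22 TPM in sh3A and 7.30, 7.01 and 7.63 TPM in shRUNX1. Only 1 silent gene had 3 TPM or more in all 3 libraries of sh3A, and 3 had it in all 3 of shRUNX1.

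The median rise of the 82 genes, as the ratio of mean TPM to the pLKO mean, was 2.62-fold in sh3A (range 1.77 to 12.3) and 2.54-fold in shRUNX1 (range 1.65 to 10.2). Over all 10442 genes at the floor the medians were 1.09 and 1.13. Both rises were at least 2-fold for 65 genes, at least 3-fold for 18 and at least 4-fold for 5. Without pLKO replicate 1 the medians were 2.31-fold and 2.19-fold, with 0.963 and 0.988 over all genes at the floor, and the 3 counts were then 50, 7 and 4. With median-ratio scaling, which brings the typical gene to the same level in each library, the medians were 2.30-fold and 2.13-fold, with 0.974 and 0.974 over all genes at the floor. The lowest knockdown library was then above the highest pLKO library for 76 of the 82 genes, and for 7.8% of all genes at the floor. The rule had selected the members on these same libraries.

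**Figure D2:**
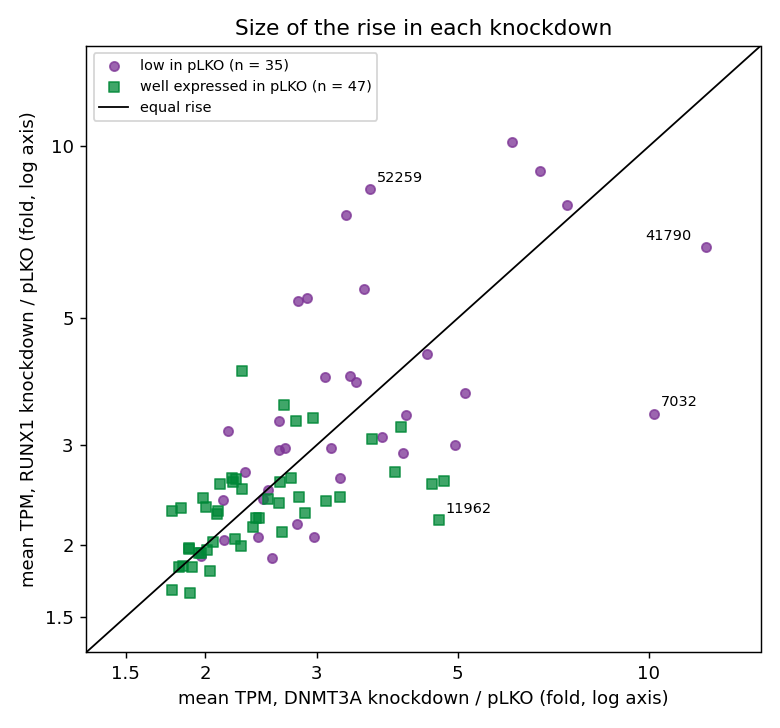
Rise of each of the 82 genes in the DNMT3A knockdown (horizontal) and the RUNX1 knockdown (vertical), each as mean TPM over the pLKO mean, on log axes. Circles are genes low in pLKO (35), squares genes well expressed there (47), and the line marks equal rises, with both axes sharing the same pLKO libraries. Every fold above 5 belongs to a low gene, and positions 7032, 11962 and 41790 lie below the line while 52259 lies above it.

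The low genes had the larger folds. Their median rise was 3.16-fold in sh3A and 3.17-fold in shRUNX1, against 2.27-fold and 2.32-fold for the well expressed genes. All 5 genes with at least a 4-fold rise in both knockdowns were low in pLKO. The floor of the rule bears on this order, since a gene under 2 TPM in pLKO had to rise by over 1.5-fold to reach 3 TPM. All 9 genes under 2 TPM in the highest pLKO library that reached the floor are therefore members.

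Of the low genes, position 37497 had the largest rise common to both knockdowns, with the smaller of its rises at 2.29 on the log2(TPM + 1) scale. It was at 1.11, 2.22 and 0.88 TPM in pLKO, 10.18, 10.07 and 11.02 TPM in sh3A and 13.31, 10.46 and 9.52 TPM in shRUNX1. The knockdown libraries overlapped each other and were all far above the controls, a rise of 7.43-fold and 7.91-fold.

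Position 41790 was at 1.18, 1.46 and 0.99 TPM in pLKO, 14.97, 16.23 and 13.51 TPM in sh3A and 7.42, 8.28 and 8.46 TPM in shRUNX1. Its rise in sh3A, 12.3-fold, was the highest of the 82 genes, and all 3 of these libraries stood above all 3 of shRUNX1. The control libraries were close together, and the fold without pLKO replicate 1 was 12.2.

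Position 22214 had 0.46, 1.52 and 0.53 TPM in pLKO, 3.65, 7.45 and 4.20 TPM in sh3A and 7.90, 9.23 and 8.39 TPM in shRUNX1. The highest fold of the 82 in shRUNX1, 10.2, was found here, on a control level of 0.837 ± 0.593 TPM (SD, n = 3), and it was 8.30 without pLKO replicate 1. At position 7665 the values were 0.96, 3.81 and 3.66 TPM in pLKO, 12.52, 16.69 and 14.04 TPM in sh3A and 11.82, 8.83 and 10.48 TPM in shRUNX1. Here pLKO replicate 1 was far under the other controls, and without it the rises went from 5.13-fold and 3.69-fold to 3.86-fold and 2.78-fold.

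The other low genes with at least 4-fold in both knockdowns were positions 1522 and 16246, both among the members nearest the floor of the rule. Position 1522 was at 0.52, 0.47 and 0.65 TPM in pLKO, 3.91, 3.95 and 3.21 TPM in sh3A and 4.96, 6.25 and 3.66 TPM in shRUNX1. Position 16246 was at 0.53, 0.85 and 0.98 TPM in pLKO, 3.63, 3.04 and 3.88 TPM in sh3A and 3.11, 3.25 and 3.87 TPM in shRUNX1. For both, the libraries of the knockdowns overlapped, and their folds rested on controls under 1 TPM.

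Among the well expressed genes, the largest common rise was at position 4225, with 3.38, 15.46 and 14.13 TPM in pLKO, 29.04, 30.54 and 31.98 TPM in sh3A and 36.63, 34.34 and 38.16 TPM in shRUNX1. Its value in pLKO replicate 1 was 0.228 times the mean of the other controls, the lowest ratio among the well expressed members. Without that library the rises were 2.06-fold and 2.46-fold in place of 2.78-fold and 3.31-fold.

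For the next genes the control libraries were closer together. Position 24809 was at 4.60, 6.12 and 5.58 TPM in pLKO, 21.21, 20.96 and 24.15 TPM in sh3A and 16.22, 18.41 and 18.00 TPM in shRUNX1. Its rises of 4.07-fold and 3.23-fold were 3.78-fold and 3.00-fold without pLKO replicate 1, and every sh3A library was above every shRUNX1 library.

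Position 2424 had 4.75, 6.22 and 6.98 TPM in pLKO, 21.01, 20.13 and 24.61 TPM in sh3A and 22.25, 16.14 and 16.74 TPM in shRUNX1. The knockdown libraries overlapped for this gene, as the first shRUNX1 library lay among those of sh3A. Position 948 was at 2.93, 5.21 and 3.80 TPM in pLKO, 12.09, 12.28 and 10.90 TPM in sh3A and 12.59, 14.21 and 13.09 TPM in shRUNX1, with all shRUNX1 libraries above all sh3A libraries by a small margin.

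The most abundant members rose by close to 2-fold in each knockdown. Position 52058 was at 137.70, 206.41 and 175.22 TPM in pLKO, 320.45, 327.85 and 332.31 TPM in sh3A and 351.71, 349.10 and 329.21 TPM in shRUNX1, which is 1.89-fold and 1.98-fold. At position 6791 the levels were 60.99, 70.17 and 68.95 TPM, then 130.43, 146.34 and 126.81 TPM, then 135.24, 130.51 and 126.83 TPM, in the same order of groups. At position 14890 they were 48.70, 76.34 and 72.84 TPM, then 127.64, 120.91 and 124.66 TPM, then 123.36, 131.79 and 134.56 TPM. In all 3 genes the libraries of the knockdowns overlapped, and none came near the controls. Over the 16 members with a mean of 10 TPM or more in pLKO, the rise lay between 1.78-fold and 2.78-fold in sh3A and between 1.65-fold and 3.31-fold in shRUNX1. For 15 of these 16 the means of the knockdowns were within 1.2-fold of each other.

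**Figure D3:**
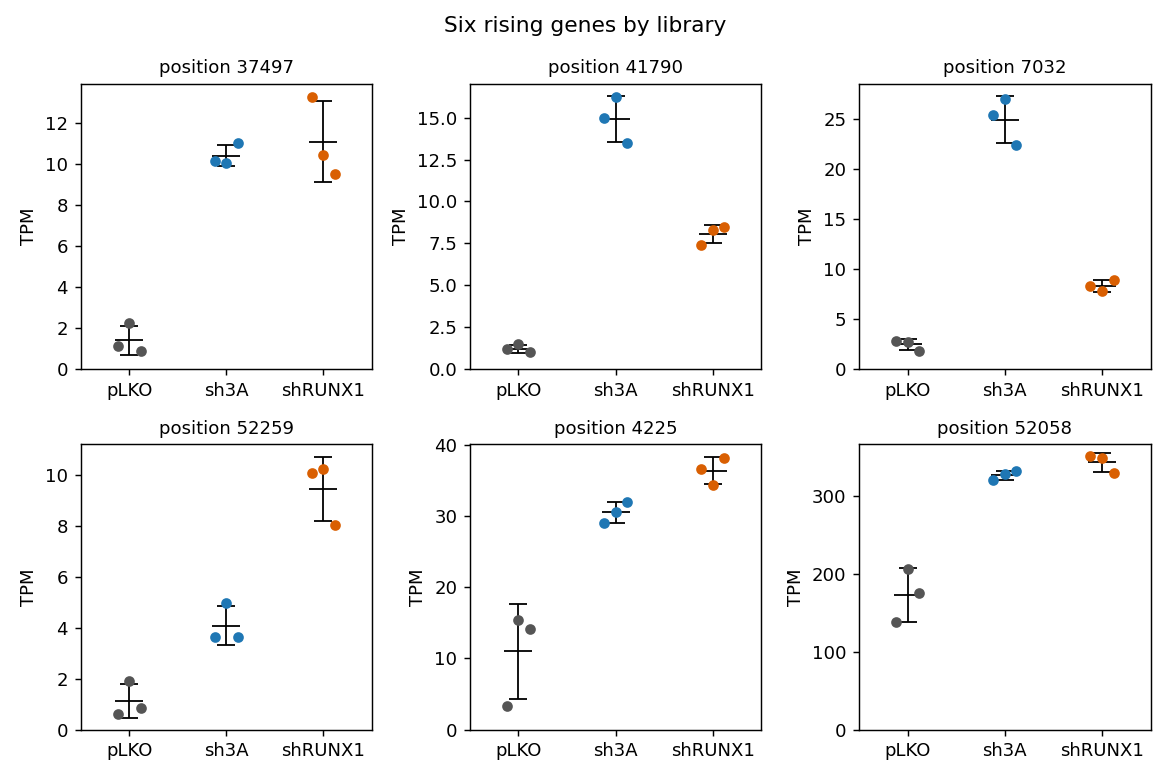
TPM of 6 rising genes in each library of pLKO, sh3A (DNMT3A knockdown) and shRUNX1 (RUNX1 knockdown). Points are libraries and bars are the mean ± SD of 3, with an axis from 0 and its own range in each panel. Position 7032 was at most 2.82 TPM in pLKO and rose further in sh3A, 52259 had its higher values in shRUNX1, and the knockdown libraries overlap at 52058.

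Which knockdown stood higher did not follow from the rule, which set only a common lower limit, so this contrast was tested. That limit also dropped genes that rose in only 1 knockdown. Shares of the members and of all tested rows are therefore not fully alike. The mean was higher in shRUNX1 for 35 genes and higher in sh3A for 47. The share of 42.7% for shRUNX1 compares with 55.4% over all 10442 genes at the floor, where the median ratio of shRUNX1 to sh3A means was 1.02. The median ratio over the members was 0.981, and the 35 genes became 40 when medians replaced means. Median-ratio scaling lowered every shRUNX1 library more than any sh3A library, so the 47 genes higher in sh3A had to stay so. With it the 35 genes became 33. The scaled median ratio was 0.939 over the members and 0.980 over all genes at the floor.

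The libraries of the knockdowns overlapped for 38 of the 82 genes. All 3 shRUNX1 libraries were above all 3 sh3A libraries for 20 genes, 24.4% against 26.8% over all genes at the floor. They were below for 24 genes, 29.3% against 19.8%. Of the low genes 8 were above and 10 below, and of the well expressed genes 12 were above and 14 below. The matching shares over all genes of each level, and for the sizes that follow, are not given here. These counts therefore describe the members only. In size, the knockdown means were within 1.2-fold of each other for 46 genes, and 23 lay between 1.2-fold and 1.5-fold apart. The mean was at least 1.5-fold higher in shRUNX1 for 7 genes, of which 6 were low in pLKO, and at least 1.5-fold lower for 6, of which 3 were low.

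In limma's test on log2(TPM + 1) over all 15144 rows with at least 1 TPM in 3 libraries, all 82 members entered, since the floor of the rule guarantees it. A call needed an adjusted p (Benjamini-Hochberg) under 0.05 and a 1.5-fold difference. With limma, 2 members were lower in shRUNX1 than in sh3A, which is 2.44% against 0.627% of all tested rows. With limma 0 members were called higher, against 0.515% of all tested rows, while 9 members were higher and 9 lower at an unadjusted p under 0.05, against 5.75% and 6.62% of all tested rows.

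The first of the called genes was at position 7032. It stood at 2.82, 2.69 and 1.82 TPM in pLKO, 25.37, 26.98 and 22.39 TPM in sh3A and 8.29, 7.74 and 8.92 TPM in shRUNX1, with no overlap between the knockdowns. The rise was 10.2-fold in sh3A and 3.40-fold in shRUNX1. The difference of shRUNX1 from sh3A was -1.47 on the log2(TPM + 1) scale (standard error 0.18, adjusted p = 0.00581 from limma, 0.000301 to 0.0636 over the alternatives).

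The other was at position 11962, at 4.57, 4.09 and 5.99 TPM in pLKO, 20.90, 23.98 and 23.47 TPM in sh3A and 11.37, 11.50 and 9.55 TPM in shRUNX1. It rose by 4.67-fold and 2.21-fold, again with no overlap between the knockdowns. The difference was -1.01 on the log2(TPM + 1) scale (standard error 0.17, adjusted p = 0.0272 from limma, 0.00115 to 0.183 over the alternatives). Both calls were lost without sh3A replicate 1 or 2, or without shRUNX1 replicate 1 or 2. Without sh3A replicate 3 or without shRUNX1 replicate 3, 1 call was left, at position 7032.

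The differences toward shRUNX1 did not pass the test. Position 52259 was at 0.62, 1.90 and 0.85 TPM in pLKO, 3.63, 4.97 and 3.65 TPM in sh3A and 10.07, 10.25 and 8.02 TPM in shRUNX1. Its difference of 1.04 on the log2(TPM + 1) scale had a standard error of 0.25 and an adjusted p of 0.0992 from limma. Every shRUNX1 library was above every sh3A library, and the same held at the next 3 positions by size.

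Position 15062 was at 0.32, 1.86 and 1.40 TPM in pLKO, 4.06, 3.59 and 4.29 TPM in sh3A and 9.86, 9.28 and 8.01 TPM in shRUNX1, a difference of 1.01 (adjusted p = 0.149 from limma). At position 11772 the values were 2.53, 2.40 and 3.05 TPM, then 7.08, 6.77 and 8.48 TPM, then 15.06, 12.66 and 15.07 TPM, a difference of 0.86 (adjusted p = 0.0525 from limma). At position 3228 they were 2.31, 3.34 and 3.70 TPM, then 9.65, 8.83 and 8.59 TPM, then 15.87, 17.98 and 16.98 TPM, a difference of 0.84 (adjusted p = 0.0648 from limma). All 4 genes were low in pLKO. Their sh3A libraries too were all above their controls, as the rule required of every member.

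The number of calls depended on pLKO replicate 1, although it is no part of this contrast. In this fit the standard error of a gene draws on the libraries of all groups. It also draws on the spread of other genes of similar level. At position 7032 the standard error was 0.18 with it and 0.12 without it. Without it 5 members were called higher and 6 lower in shRUNX1, against 4.59% and 2.41% of all tested rows. When all pLKO libraries were left out of the fit the counts were again 5 and 6, against 4.72% and 2.47%. With median-ratio scaling they were 5 and 6 as well, against 1.39% and 1.61%. With the replicate number as a block they were 0 and 1, against 0.218% and 0.158%.

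The 5 members called higher in these 3 fits were the 4 above and position 1957, which like the next 3 genes was named after its values were seen. Position 1957 was well expressed, at 4.18, 7.77 and 7.47 TPM in pLKO, 13.58, 13.95 and 16.91 TPM in sh3A and 25.64, 26.71 and 26.02 TPM in shRUNX1. Its fold of 4.04 in shRUNX1 was the highest of the well expressed genes.

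The 6 called lower without pLKO replicate 1 were positions 7032, 11962 and 41790, described above, and positions 5110, 11407 and 11714. Position 5110 was at 6.27, 8.13 and 7.52 TPM in pLKO, 31.81, 37.98 and 29.98 TPM in sh3A and 21.09, 16.94 and 18.24 TPM in shRUNX1. At position 11407 the values were 2.69, 3.28 and 2.41 TPM, then 12.16, 14.19 and 15.13 TPM, then 8.03, 8.04 and 9.07 TPM. At position 11714 they were 2.22, 5.87 and 6.10 TPM, then 18.87, 23.15 and 25.54 TPM, then 12.87, 12.66 and 11.26 TPM. In each of these genes every sh3A library was above every shRUNX1 library, while the rule itself placed pLKO lowest.

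The 95% interval of the difference between the knockdowns lay wholly within 1.5-fold for 28 of the 82 genes, 34.1% against 31% of all tested rows. Among the 16 members with a mean of 10 TPM or more in pLKO it did so for 12, and among the 35 low members for 7. For position 6791 the interval ran from -0.25 to 0.18 and for position 52058 from -0.22 to 0.36 on the log2(TPM + 1) scale. For the remaining 54 genes the interval reached a difference of 1.5-fold or more. These intervals also draw on the spread of the pLKO libraries, so their width is not that of the knockdowns alone. At position 16400 the knockdown libraries lay between 20.62 and 21.87 TPM, and the interval ran from -0.77 to 0.73. Its pLKO values were 4.35, 12.87 and 13.65 TPM. The counts of intervals without pLKO replicate 1 are not given here.

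**Figure D4:**
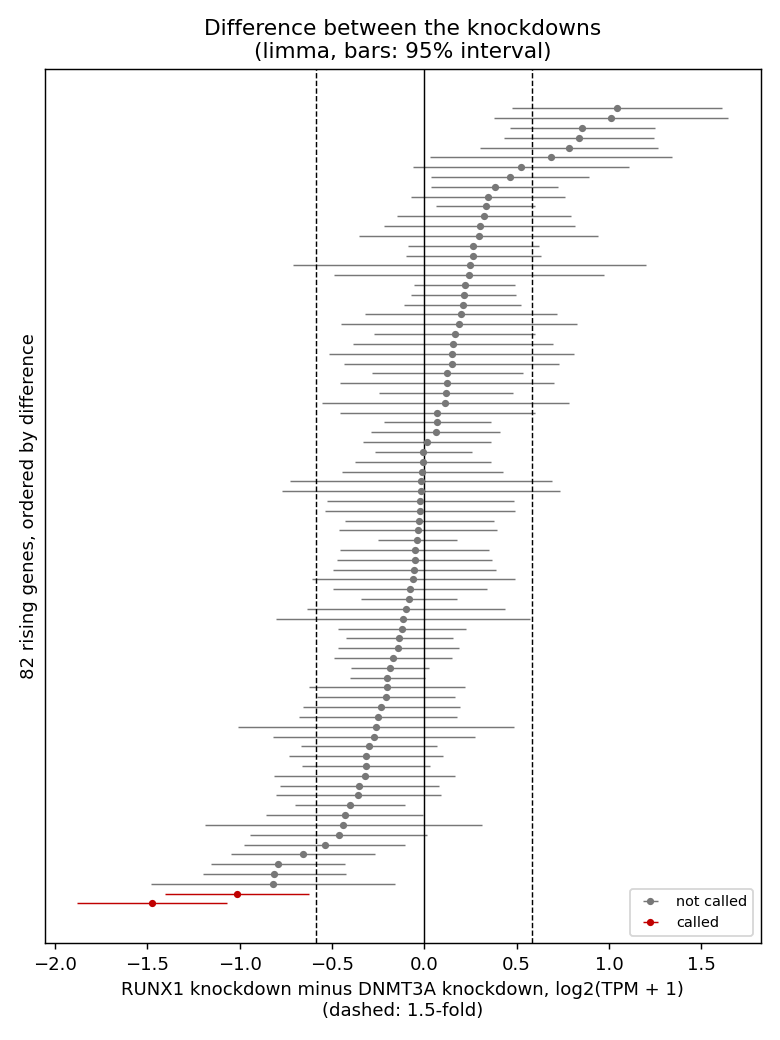
Difference between the RUNX1 and the DNMT3A knockdown for each of the 82 genes on the log2(TPM + 1) scale, in order of size. Points are limma estimates, bars 95% intervals, and dashed lines 1.5-fold in either direction. The width of the bars draws on the spread of the pLKO libraries as well. The 2 called genes, at -1.47 and -1.01, are at the bottom in red, and the bars of 28 genes stay between the dashed lines.

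Within a knockdown the members varied slightly more than other genes at the floor. The coefficient of variation over the 3 libraries had a median of 8.02% in sh3A and 7.12% in shRUNX1, against 6.52% and 6.13% over the 10442 genes. In pLKO it was 23.4%, against 27.5%. The low members had the wider spread, with medians of 33.2% in pLKO, 10.5% in sh3A and 8.22% in shRUNX1, against 20.2%, 6.36% and 5.85% for the well expressed members. The well expressed members alone thus varied less than all genes at the floor, in the knockdowns only slightly.

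How much the choice of genes rests on single libraries was read by applying the rule to 2 replicate numbers at a time. Without the libraries of number 1 it took 96 genes, without number 2 it took 149 and without number 3 it took 132. In 90, 95 and 98 of these, which is 93.8%, 63.8% and 74.2%, both knockdown libraries left out were at least 1.5 times the pLKO library left out. The 82 members are in each of these counts because the rule had already required it of them. The shares therefore describe the choice and are no independent support for the rise. Over annotated genes with at least 3 TPM in both knockdown libraries left out, the same shares were 49.5%, 2.22% and 2.38%.

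The members closest to the limits lay hardly apart from the genes just outside. At position 1076 the lowest knockdown library was at 103.19 TPM and the highest pLKO library at 68.78 TPM, which just meets the ratio, and at positions 7793 and 16400 the ratios were 1.508 and 1.511. Just outside were positions 4974, 56586 and 4625, with ratios of 1.493, 1.488 and 1.480. At the floor, positions 16246, 7125 and 1522 were inside with lowest knockdown values of 3.04, 3.15 and 3.21 TPM. Positions 4434, 15332 and 12267 met the ratio and were left out at 2.95, 2.89 and 2.76 TPM. The lowest knockdown library was above the highest pLKO library, by any margin, for 1273 of the 10442 genes (12.2%), and it was at least 2 times higher for 27, all of them members.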

How the data were processed

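The deposited values were TPM per gene for each library, made by the authors. The submitters' processing notes name HISAT2 2.1.0, RSEM 1.3.1, DESeq2 1.24.0 and the build GRCh38.p13, and the annotation release is not given in the sources used here. The 9 libraries were joined by row position, since the names are cut to 8 characters. The 3 pLVX libraries, with 61610 rows, were not used here. The labels gave each library its group and number.

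Members and lists were chosen with earlier results of these data known. Named positions are the 4 largest common rises in each control level, the largest differences between the knockdowns in each direction (up to 4, called ones if any), the 3 highest means and the 3 genes on each side of each limit. The knockdowns were compared with limma 3.58.1 in R 4.3.3 on log2(TPM + 1), with a variance trend, over 15144 rows that reached 1 TPM in 3 or more libraries. No 2 libraries of a group held the same values, as at most 0.733% of tested rows were identical between them. The test was checked on simulated data, where it recovered most genes with the larger of the changes simulated and few with the smaller. Each simulated gene had 1 spread for all groups, whereas the real spread was wider in pLKO than in the knockdowns. The check therefore does not show how the test performs with unequal spread. Hairpin targets were matched to GENCODE 29 transcripts. Python 3.11.15 was used otherwise. Alternatives were other limits, pseudocount 0.1, no filter, fewer libraries, a replicate block and median-ratio scaling.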

Additional observations from a re-analysis of the deposited data

Results flagged for a closer look

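Newly assembled rows were outside the set by its rule. Of 176 such rows with at least 3 TPM in all 6 knockdown libraries, 4 met both limits, which is 2.27%, against 0.785% of the annotated genes, and they are given here as signal in rows outside the main comparison, chosen after their values were seen. Position 58665 was at 0.41, 0.50 and 0.42 TPM in pLKO, 5.94, 5.69 and 5.56 TPM in the DNMT3A knockdown and 8.47, 9.21 and 9.17 TPM in the RUNX1 knockdown. Position 59064 was at 1.43, 2.37 and 2.69 TPM, then 7.96, 8.62 and 6.86 TPM, then 11.3, 11.5 and 10.9 TPM in the same order. Position 59070 was at 2.64, 6.38 and 7.13 TPM, then 12.01, 14.75 and 11.18 TPM, then 18.45, 14.81 and 18.89 TPM. Position 59242 was at 10.8, 8.15 and 14.5 TPM, then 25.09, 26.03 and 25.49 TPM, then 27.51, 27.94 and 27.83 TPM. In all 4 rows every RUNX1 library was above every DNMT3A library, which also held for 26.8% of the annotated genes at the floor. The share over all 176 newly assembled rows is not given here. At position 59070 the libraries were parted only by 14.75 and 14.81 TPM. The difference between the knockdowns is given with no test.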

How the results depend on the processing

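The set of 82 genes became 27 with a 2-fold margin, 41 with a floor of 10 TPM and 122 with a floor of 1 TPM. Median-ratio scaling gave 56, of which 49 were among the 82, and 1 TPM added to both sides gave 67. Leaving out each library gave 83 to 123 genes, among them all 82, as must be when a library is dropped from the rule, and the highest counts were 123 without pLKO replicate 2 and 106 without pLKO replicate 3. With control limits of 0.1 and 3 TPM, 17 genes were low. With limits of 1 and 10 TPM, 2 were silent, 60 low and 20 well expressed. The 35 genes with the higher mean in the RUNX1 knockdown were 34 to 40 with each knockdown library left out. Members called lower in the RUNX1 knockdown were 6 with median-ratio scaling or with only the 6 knockdown libraries, 1 with the replicate block and 0 to 6 with each library left out. Those called higher were 5 with either of the first settings, 0 with the block and 0 to 5 with each library left out. The replicate block called 0.218% of all rows higher and 0.158% lower. Same-numbered libraries did not deviate together (correlations from -0.11 to 0.085 over 9 pairs, and 2 of 9 libraries correlated best with their own number). With any rise in place of 1.5-fold, the shares of genes past the limit in the libraries left out were 96.9%, 92.6% and 89.4% for numbers 1, 2 and 3. The 82 members are in each of these 3 counts by the rule. Over annotated genes at 3 TPM in both knockdown libraries left out the shares were 82.7%, 31.5% and 29.3%. With median-ratio scaling and the 1.5-fold limit the shares were 55.2%, 67.3% and 81.0%, against 11.8%, 2.72% and 3.21% over such genes. Without pLKO replicate 1 or with the knockdowns alone, the spread of that library is absent from the fit. The cause of the other changes was not tested. How depth limits these values is unknown, since TPM keeps none.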

Other observations

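Among the 100 rows left out for their high level, 1 met both limits of the rule, at position 33912, which was chosen after its values were seen. It was at 1147, 1039 and 1335 TPM in pLKO, 2841, 2752 and 2621 TPM in sh3A and 2627, 2522 and 3030 TPM in shRUNX1. The libraries of the knockdowns overlapped, and all 6 were above every control, as the limits require. Its level in any knockdown library was above the summed level of all 82 members there.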
